A study of Mus musculus with 24 samples.

Results

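Type I interferon-stimulated genes were followed in CD45+ cells of breast tumors that carried human HER2. The set held 41 genes, chosen by symbol from the 16996 genes measured, and every one of the 41 was found. It was made up of the 2 chains of the interferon receptor, 3 signal transducers and transcription factors, 4 nucleic acid sensors, 4 genes of the ISG15 system, 17 antiviral effectors, 4 TRIM proteins, 3 genes of the PARP9, PARP14 and DTX3L group, and 4 other induced genes.

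EMT6-hHER2 cells are a murine breast cancer line made to express human HER2 and taken from a clone isolated by single-cell sorting. They were grown in the mammary fat pad of female Balb/c mice of WT genotype, aged 10 to 12 weeks according to the labels. Tumors of 80 mm3 received nothing, trastuzumab at 20 mg/kg, T-DM1 at 15 mg/kg or T-PNU at 1 mg/kg, each as 1 intravenous dose. Leukocytes were enriched with magnetic beads 10 days later, and RNA from each mouse went into its own library, which gave 6 samples for each of 4 groups and 24 together.

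Trastuzumab is an antibody against HER2, T-DM1 is that antibody carrying a microtubule poison, and T-PNU is the antibody carrying an anthracycline derivative that damages DNA. The doses differed between the agents, so agent and dose cannot be told apart. Tumors treated with T-PNU had become small by the time of harvest, so treatment and tumor size cannot be told apart either. The column headings of the deposited values carry a number that the labels do not explain, and each of the 4 groups held its own run of these numbers. Any difference in handling between those runs cannot be told apart from treatment, and this holds between the treated groups as well.

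Type I interferons bind the receptor chains IFNAR1 and IFNAR2, and the kinases on these chains then switch on STAT2. Phosphorylated STAT2 joins IRF9 in a complex that binds interferon-stimulated response elements in promoters and switches on antiviral genes. One of the induced genes encodes IRF7, which drives further interferon production, and in tumors the response is known for its part in antigen presentation and T cell priming.

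The response element has a core made of GAAA, any 2 bases and GAAA again. It was searched on both strands in RefSeq promoter windows of GRCm38.p6, from 250 bases before to 50 bases after each gene start, and overlapping matches were allowed. The windows covered 31 of the 41 genes, and 13 of those 31 (41.9%) held the core, against 3.99% of 27025 symbols in the table. The 13 were Bst2, Ddx58, Eif2ak2, Ifih1, Ifit1, Ifit3, Isg15, Oas1a, Oas3, Rsad2, Stat2, Trim21 and Trim30a. The 160 bases before the start are printed for 4 of them that carry the results below, with the core or its reverse complement (TTTC, any 2 bases, TTTC) in capitals. The sequence is that of the C57BL/6J reference and not of the Balb/c mice. Isg15 was added to the printed genes after its values were seen.
Isg15, chr4:156200819-156200978, minus strand: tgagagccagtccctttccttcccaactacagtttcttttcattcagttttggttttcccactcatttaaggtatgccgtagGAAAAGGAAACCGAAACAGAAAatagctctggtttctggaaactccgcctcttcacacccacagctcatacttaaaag
Ifit3, chr19:34583369-34583528, plus strand: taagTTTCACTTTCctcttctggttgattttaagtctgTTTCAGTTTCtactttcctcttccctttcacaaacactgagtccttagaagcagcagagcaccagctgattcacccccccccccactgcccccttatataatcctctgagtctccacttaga
Oas3, chr5:120777660-120777819, minus strand: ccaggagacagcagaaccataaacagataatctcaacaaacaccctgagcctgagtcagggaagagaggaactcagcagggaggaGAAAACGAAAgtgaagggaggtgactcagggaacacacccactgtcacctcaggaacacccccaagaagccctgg
Bst2, chr8:71537473-71537632, minus strand: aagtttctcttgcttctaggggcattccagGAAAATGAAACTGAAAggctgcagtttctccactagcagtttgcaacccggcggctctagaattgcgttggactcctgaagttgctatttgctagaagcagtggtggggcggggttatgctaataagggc
The cores overlapped in the Isg15 promoter, where 3 of them spanned bases -78 to -57 counted from the start. A pair overlapped between -130 and -115 in Bst2, a pair stood apart in Ifit3, and Oas3 held 1 core from -75 to -66. A match is a description of letters and not evidence that a factor was bound.

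Values are the deposited normalized levels on a log2 scale, which ran from 1.13 to 19.7 over all genes, and the medians of the samples lay between 8.73 and 8.87. Read depth is unknown, because counts could not be recovered. Differences are given as log2 fold changes from a limma fit of all 24 samples, a gene was called at a Benjamini-Hochberg adjusted p under 0.05 over all 16996 genes, and shrinkage of the log2 values, if any was applied, would have made fold changes smaller. The leukocyte gene Ptprc, which encodes CD45, was between 14.01 and 15.52 in all 24 samples. Tumor and stromal genes were measured as well, with Krt8 between 11.69 and 13.77 and Col1a1 between 11.49 and 14.46. In such bulk samples fewer cells of a type and less RNA per cell cannot be told apart.

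Untreated B1 and C1 held the extreme levels among the 24 samples. Averaged as deviations from each gene's 24-sample mean, the 41 genes stood at 0.62 in untreated C1, the highest of all 24 samples, and at -0.61 in untreated B1, the lowest. The other untreated samples lay between -0.46 and -0.07. C1 held the highest of 24 values for 28 of the 41 genes and B1 the lowest for 26, while untreated A1 and trastuzumab G2 were each lowest for 6. The study's heatmaps show 20 of the 24 samples and leave out B1 and C1 as well as trastuzumab E2 and B3, without a reason for each. Results are therefore given with and without C1, and for those 20 samples. C1 was picked by its level of these same 41 genes, and B1 stayed in the fits without C1. Leaving out C1 lowers the untreated means of the 41 genes, which raises their differences from untreated. Those fits show how far the results rest on C1 and are no separate support.

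**Figure D1:**
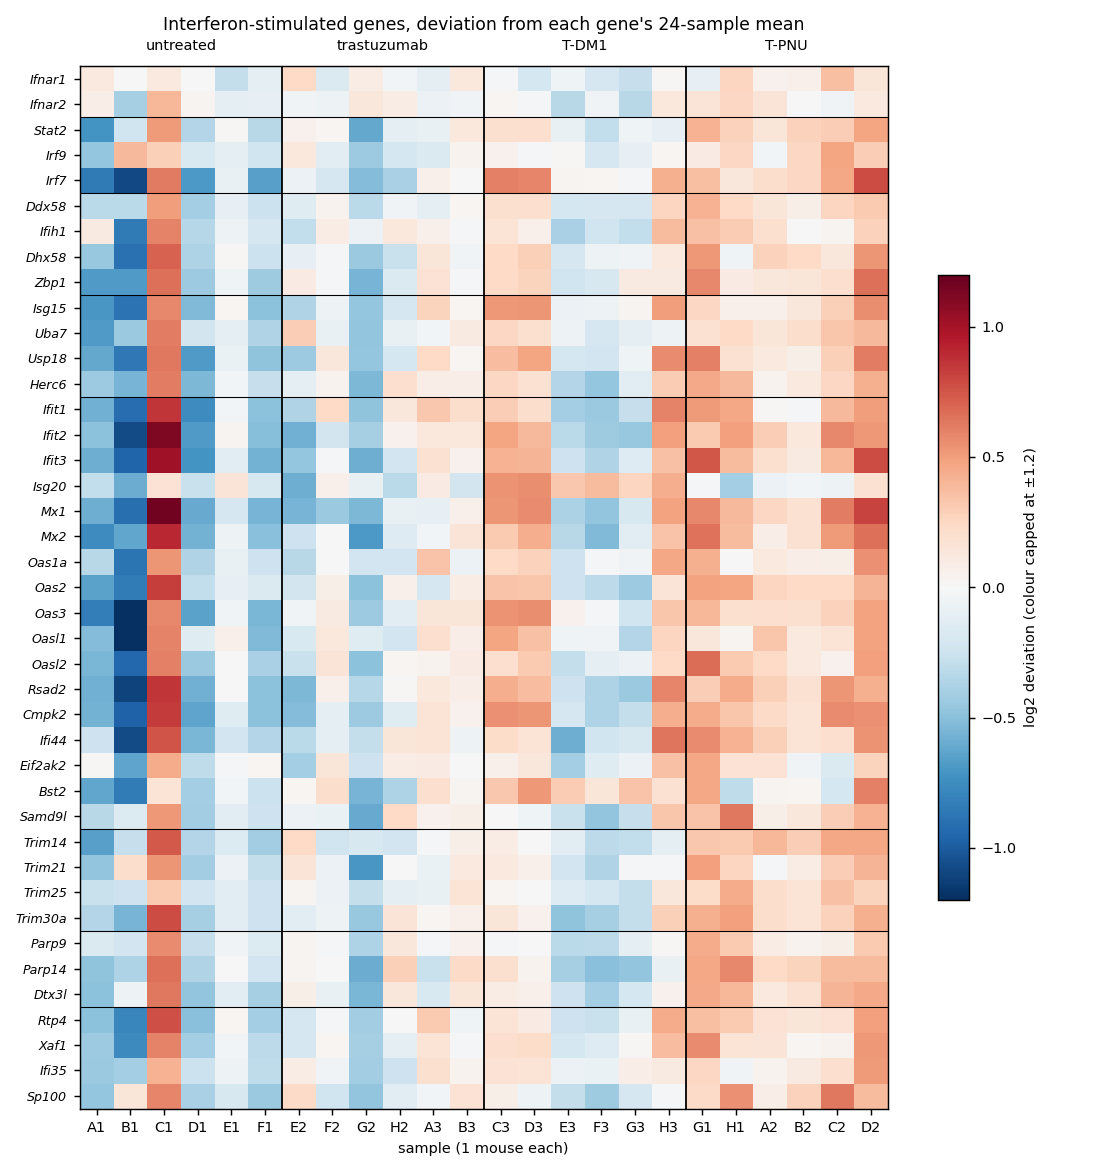
Deviation of each of the 41 genes (rows, grouped by role) from its 24-sample mean, on a log2 scale, in each sample (columns, 1 mouse each, grouped by treatment), red for above and blue for below. C1 is red throughout among the untreated samples, the T-PNU samples are mostly red, and the T-DM1 samples divide into C3, D3 and H3 on the red side and E3, F3 and G3 on the blue side.

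The average over the 41 genes ran from 0.13 to 0.46 in T-PNU samples, with a median of 0.27. It ran from -0.40 to 0.06 under trastuzumab with a median of -0.05, and from -0.23 to 0.26 under T-DM1 with a median of 0.04. Every T-PNU sample was above every trastuzumab sample and above the 5 untreated samples other than C1, with 36 to 41 of the genes above their own means in each. T-DM1 samples fell on both sides of 0, with C3, D3 and H3 between 0.23 and 0.26 and E3, F3 and G3 between -0.23 and -0.16.

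T-PNU was first set against no treatment. All 41 log2 fold changes were positive, against 51.5% of all genes, with a median of 0.49. No gene of the 41 was called by limma with all 24 samples, where 0.135% of all genes were called higher, and 36 of the 41 (87.8%) were higher at an unadjusted p under 0.05, against 9.74% of all genes. Without C1, 36 of the 41 were called (87.8%) against 7.55% of all genes, and the median was 0.67. In the 20 samples, 35 were called (85.4%) against 15.3% of all genes, with a median of 0.62. No gene had all T-PNU values above all untreated values, an event found in 0.341% of all genes. With C1 left out 30 of the 41 (73.2%) did, against 4.21% of all genes. C1 was picked by its level of these genes, so the counts without it are no separate support.

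T-DM1 was then set against no treatment. The median log2 fold change was 0.25 and 36 of the 41 were positive (87.8% against 45.5% of all genes). Irf7, Bst2 and Isg20 were called higher, which is 3 of the 41 (7.32%) against 4.11% of all genes. Without C1 the called genes numbered 8 (19.5%, against 2.31% of all genes) and the median was 0.45, and in the 20 samples 4 were called, against 0.906%, with a median of 0.34. The number of calls moved by over 1.5 times when any of 8 libraries was left out, from 1 without A1, B1, C3, D3, E3 or F3 to 5 without E1 and 8 without C1.

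Trastuzumab alone gave a median of 0.11, with 38 of the 41 positive (92.7% against 45.5% of all genes). None of the 41 was called by limma and none had an unadjusted p under 0.05, where 0.259% of all genes were called in either direction. None was called without C1 either, against 0.271%, although the median became 0.29. None was called in the 20 samples, with a median of 0.20 and 41 of 41 positive, and the shares of all genes there are not given here. The 3 comparisons above share the same 6 untreated mice.

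Set against T-DM1, T-PNU was called higher in 8 of the 41 genes (19.5%) against 12.4% of all genes, and lower in 1 of the 41 (2.44%), Isg20, against 17.4%. The 8 were Parp14, Sp100, Trim14, Samd9l, Dtx3l, Trim25, Parp9 and Ifnar1. The median difference was 0.27, and 38 of the 41 were positive against 54.2% of all genes. Without C1, which enters only through the shared estimate of the spread, 10 were called higher (24.4%) against 14.4% of all genes, and in the 20 samples 13 were (31.7%) against 19.8%. The 9 calls in either direction came down to 4 without T-DM1 F3, and to 5 without T-PNU H1 or without T-DM1 G3.

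Against trastuzumab, all 41 T-PNU means were higher (52.0% of all genes), with a median difference of 0.36. None was called by limma, where 0.00588% of all genes were called higher, and 22 (53.7%) had an unadjusted p under 0.05, against 7.83% of all genes. In the 20 samples 22 were called, against 14.6% of all genes, and 40 of the 41 were positive, for which no share of all genes is given here. Without C1 2 were called (4.88%), Trim14 and Trim25, against 0.241%. Between T-DM1 and trastuzumab the median was 0.09, and 29 of the 41 were positive (70.7% against 49.6% of all genes). Only Isg20 was called higher with all 24 samples, where 0.212% of all genes were. Isg20 lost that call when any 1 of trastuzumab E2, H2 or B3 or of T-DM1 C3, D3, E3 or F3 was left out.

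Across all 4 groups, an F test called 6 of the 41 genes (14.6%), a share below the 18.8% of all genes. They were Isg20 (limma adjusted p = 0.00989), Trim25 (0.0186), Irf7 (0.0220), Trim14 (0.0376), Oas3 (0.0419) and Bst2 (0.0462). In the 20 samples 35 were called (85.4%) against 40.8% of all genes. Leaving out C1 alone also gave 35 calls, leaving out D1, F1, B2, C2, D3, E3 or F3 gave 3, and leaving out H1 gave 2. The shares of all genes in these last fits are not given here.

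**Figure D2:**
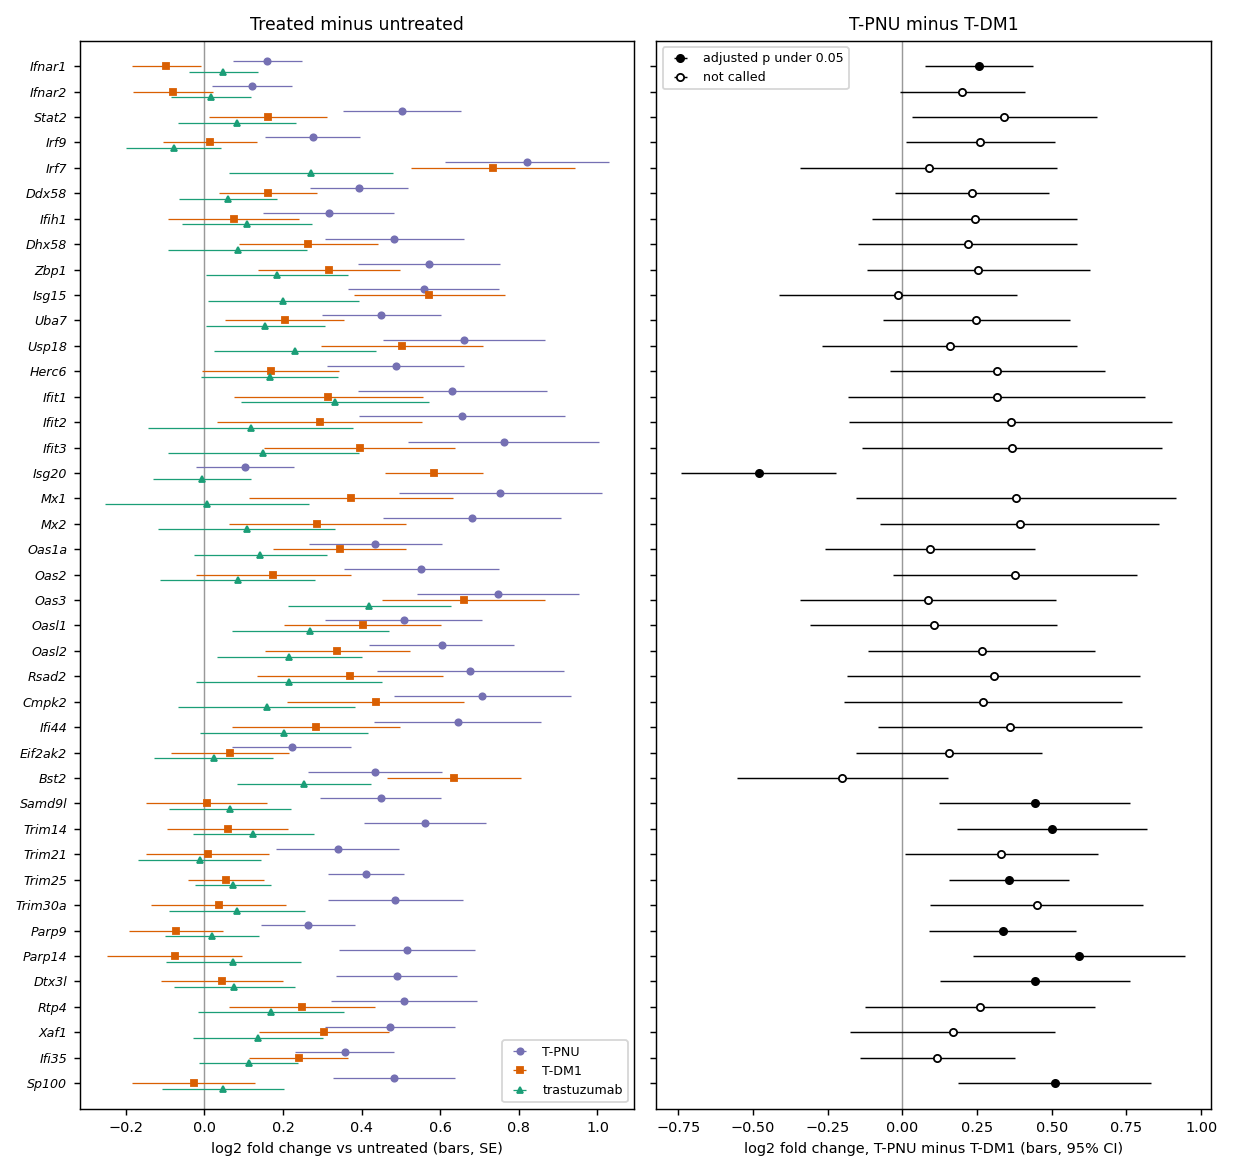
Log2 fold changes of the 41 genes: on the left each treatment minus untreated with bars of 1 SE, on the right T-PNU minus T-DM1 with 95% confidence intervals and filled points where the adjusted p was under 0.05. T-PNU and T-DM1 lie close together for Irf7 at 0.82 and 0.73, and far apart for Parp14 at 0.52 and -0.08 and for Isg20 at 0.10 and 0.58.

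Of the receptor chains, Ifnar1 (chr16:91485238-91507441 in GENCODE M21 on GRCm38) ran from 12.45 to 12.86 in untreated mice (median 12.74), from 12.57 to 12.98 under trastuzumab (12.77), from 12.46 to 12.76 under T-DM1 (12.61) and from 12.65 to 13.11 under T-PNU (12.85). All groups overlapped, and T-DM1 held the lowest median. Ifnar1 was higher under T-PNU than under T-DM1 by 0.26 (95% CI 0.08 to 0.44, limma adjusted p = 0.0314), with an adjusted p from 0.00709 to 0.0848 over 19 alternatives. Against untreated mice the differences were 0.16 ± 0.09 (SE, adjusted p = 0.250 by limma) for T-PNU and -0.10 for T-DM1.

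Ifnar2, the second chain at chr16:91372783-91405589, ran from 11.09 to 11.89 in untreated mice (median 11.45), from 11.42 to 11.62 under trastuzumab (11.44), from 11.15 to 11.61 under T-DM1 (11.46) and from 11.44 to 11.73 under T-PNU (11.62). Its groups overlapped throughout, with no call in any comparison. The T-PNU difference from untreated was 0.12 ± 0.10 (SE, limma adjusted p = 0.437), and the difference from trastuzumab, 0.11, was the smallest among the 41 genes.

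Irf7 (chr7:141262706-141266481), the factor through which the response amplifies itself, ran from 13.11 to 14.82 in untreated mice (median 13.53), from 13.68 to 14.26 under trastuzumab (14.07), from 14.19 to 14.80 under T-DM1 (14.43) and from 14.34 to 14.98 under T-PNU (14.50). Every T-PNU value was above every trastuzumab value, and C1 alone among untreated mice reached into the T-PNU range. The T-DM1 group rose over untreated by 0.73 ± 0.21 (SE, limma adjusted p = 0.0383), and the call held in 8 of 19 alternatives, whose adjusted p ran from 0.000749 to 0.111. T-PNU gave the highest fold change of the 41 genes against untreated, 0.82 ± 0.21 (SE, limma adjusted p = 0.0634), which became 1.04 without C1 (adjusted p = 0.00156, from 0.00121 to 0.193 over 21 alternatives). Between T-PNU and T-DM1 the difference was 0.09, with a 95% CI from -0.34 to 0.52. Trastuzumab stood 0.27 above untreated (limma adjusted p = 0.811).

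Irf9, the DNA-binding partner of STAT2, ran from 11.94 to 12.79 in untreated mice (median 12.25), from 11.97 to 12.53 under trastuzumab (12.25), from 12.20 to 12.46 under T-DM1 (12.40) and from 12.37 to 12.87 under T-PNU (12.65). All groups overlapped. Irf9 gave the lowest fold change under trastuzumab, -0.08 (limma adjusted p = 0.927), which was 0.01 in the 20 samples, and under T-PNU 0.28 ± 0.12 (SE, adjusted p = 0.165 by limma). Stat2 stood 0.50 ± 0.15 above untreated under T-PNU (SE, limma adjusted p = 0.0752) and 0.16 above it under T-DM1.

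Among the sensors, Zbp1 (chr2:173206612-173218923), which recognizes left-handed nucleic acids and can start necroptosis, ran from 12.47 to 13.81 in untreated mice (median 12.72), from 12.59 to 13.32 under trastuzumab (13.13), from 12.91 to 13.41 under T-DM1 (13.26) and from 13.25 to 13.81 under T-PNU (13.32). Without C1 the T-PNU and untreated values did not overlap, while T-PNU and T-DM1 did. Zbp1 stood 0.57 ± 0.18 above untreated under T-PNU (SE, limma adjusted p = 0.0835), and 0.76 without C1 (adjusted p = 0.0039, from 0.00227 to 0.217 over 21 alternatives). The RNA sensors Ddx58, Ifih1 and Dhx58 stood between 0.32 and 0.48 above untreated under T-PNU and between 0.07 and 0.26 under T-DM1, and none of the 3 was called.

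In the ISG15 system, Usp18 (chr6:121245906-121270917), the protease that removes ISG15 from proteins and damps the receptor, ran from 11.41 to 12.90 in untreated mice (median 11.72), from 11.80 to 12.51 under trastuzumab (12.18), from 12.04 to 12.84 under T-DM1 (12.43) and from 12.34 to 12.88 under T-PNU (12.50). C1 was the highest of all samples. Usp18 stood 0.66 ± 0.21 above untreated under T-PNU (SE, limma adjusted p = 0.0824) and 0.50 above it under T-DM1 (limma adjusted p = 0.141). Without C1 the T-PNU difference was 0.86 (limma adjusted p = 0.00496, from 0.00341 to 0.21 over 21 alternatives).

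Isg15, the ubiquitin-like modifier whose promoter with 3 overlapping cores is printed above, was named after its values were seen. It ran from 12.58 to 14.05 in untreated mice (median 12.96), from 13.00 to 13.74 under trastuzumab (13.34), from 13.39 to 13.99 under T-DM1 (13.73) and from 13.52 to 14.03 under T-PNU (13.66). The T-DM1 and T-PNU ranges lay on each other, with a difference of -0.01 (95% CI -0.41 to 0.38). Isg15 stood 0.56 above untreated under T-PNU (limma adjusted p = 0.0981) and 0.57 above it under T-DM1 (limma adjusted p = 0.073). Uba7, which activates ISG15, and the ligase gene Herc6 stood 0.45 and 0.49 above untreated under T-PNU, without a call.

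Of the antiviral effectors, Ifit3 (chr19:34583531-34588731), one of a family that binds foreign RNA ends, ran from 10.71 to 12.69 in untreated mice (median 11.10), from 11.09 to 11.85 under trastuzumab (11.55), from 11.31 to 12.09 under T-DM1 (11.78) and from 11.78 to 12.46 under T-PNU (12.06). C1 was above every T-PNU sample, and the other untreated samples were below them all. Ifit3 stood 0.76 ± 0.24 above untreated under T-PNU (SE, limma adjusted p = 0.0843), and 1.03 without C1 (adjusted p = 0.00261, from 0.00227 to 0.215 over 21 alternatives). Reads of Ifit3 and its near-identical copy Ifit3b may have been split, so its level is uncertain, and the same holds for Oas1a and Trim30a with their copies.

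Mx1 (chr16:97447035-97462907) encodes a dynamin-like GTPase, and many laboratory strains, Balb/c among them, carry a defective allele of it. It ran from 10.60 to 12.66 in untreated mice (median 10.93), from 10.95 to 11.57 under trastuzumab (11.24), from 11.03 to 12.07 under T-DM1 (11.65) and from 11.69 to 12.32 under T-PNU (11.99). Every T-PNU value lay above every trastuzumab value, and the difference of 0.75 ± 0.26 (SE, limma adjusted p = 0.174) was the largest of the 41 in that comparison. Against untreated the T-PNU difference was also 0.75 ± 0.26 (SE, limma adjusted p = 0.0975), and 1.04 without C1 (adjusted p = 0.00335, from 0.00264 to 0.224 over 21 alternatives).

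Oas3 (chr5:120753098-120777661), an oligoadenylate synthetase that activates RNase L, ran from 10.70 to 12.53 in untreated mice (median 11.36), from 11.52 to 12.10 under trastuzumab (11.98), from 11.72 to 12.51 under T-DM1 (12.15) and from 12.15 to 12.43 under T-PNU (12.19). The T-PNU samples lay close together, above all trastuzumab samples and inside the T-DM1 range. Oas3 stood 0.75 ± 0.21 above untreated under T-PNU (SE, limma adjusted p = 0.0682), and 0.95 without C1 (adjusted p = 0.00285, from 0.00227 to 0.199 over 21 alternatives). It stood 0.66 above untreated under T-DM1 (limma adjusted p = 0.0570), and its 0.42 under trastuzumab was the largest of the 41 there (limma adjusted p = 0.581).

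Isg20 (chr7:78913424-78920396) is an RNA exonuclease gene. It ran from 10.95 to 11.71 in untreated mice (median 11.31), from 10.96 to 11.64 under trastuzumab (11.39), from 11.80 to 12.10 under T-DM1 (11.95) and from 11.14 to 11.73 under T-PNU (11.50). All 6 T-DM1 values lay above all 18 values of the other groups. Isg20 rose under T-DM1 by 0.58 ± 0.13 over untreated (SE, limma adjusted p = 0.0105) and kept an adjusted p under 0.05 in 19 of 19 alternatives, from 0.000228 to 0.0326. It was lower under T-PNU than under T-DM1 by a log2 fold change of -0.48 (95% CI -0.74 to -0.22, limma adjusted p = 0.00799), with an adjusted p under 0.05 in 19 of 19 alternatives (0.0011 to 0.0283). Over trastuzumab, T-DM1 was higher by 0.59 ± 0.13 (SE, limma adjusted p = 0.0272, from 0.00344 to 0.0849 over 19 alternatives), and T-PNU differed from untreated by 0.10 (limma adjusted p = 0.597).

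Bst2 (chr8:71534255-71537456) encodes tetherin, which holds budding virus at the cell surface. It ran from 12.45 to 13.45 in untreated mice (median 12.95), from 12.72 to 13.49 under trastuzumab (13.31), from 13.43 to 13.81 under T-DM1 (13.60) and from 12.98 to 13.89 under T-PNU (13.31). The T-DM1 samples held the highest median, and C1 alone among untreated samples reached them. Bst2 rose under T-DM1 by 0.64 ± 0.17 over untreated (SE, limma adjusted p = 0.0308, from 0.0028 to 0.0812 over 19 alternatives), and stood 0.43 ± 0.17 above untreated under T-PNU (SE, limma adjusted p = 0.131). The difference between T-PNU and T-DM1 was -0.20, with a 95% CI from -0.55 to 0.15.

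Samd9l (chr6:3372257-3399572), a restriction factor that limits proliferation, ran from 12.54 to 13.47 in untreated mice (median 12.75), from 12.35 to 13.19 under trastuzumab (12.94), from 12.48 to 13.28 under T-DM1 (12.79) and from 13.03 to 13.59 under T-PNU (13.28). T-PNU and T-DM1 values overlapped. Samd9l was higher under T-PNU than under T-DM1 by 0.44 (95% CI 0.12 to 0.76, limma adjusted p = 0.0348, from 0.00543 to 0.0959 over 19 alternatives). The fold changes of all 17 effectors against untreated ran from 0.10 to 0.76 under T-PNU with a median of 0.63, and from 0.01 to 0.66 under T-DM1 with a median of 0.34.

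**Figure D3:**
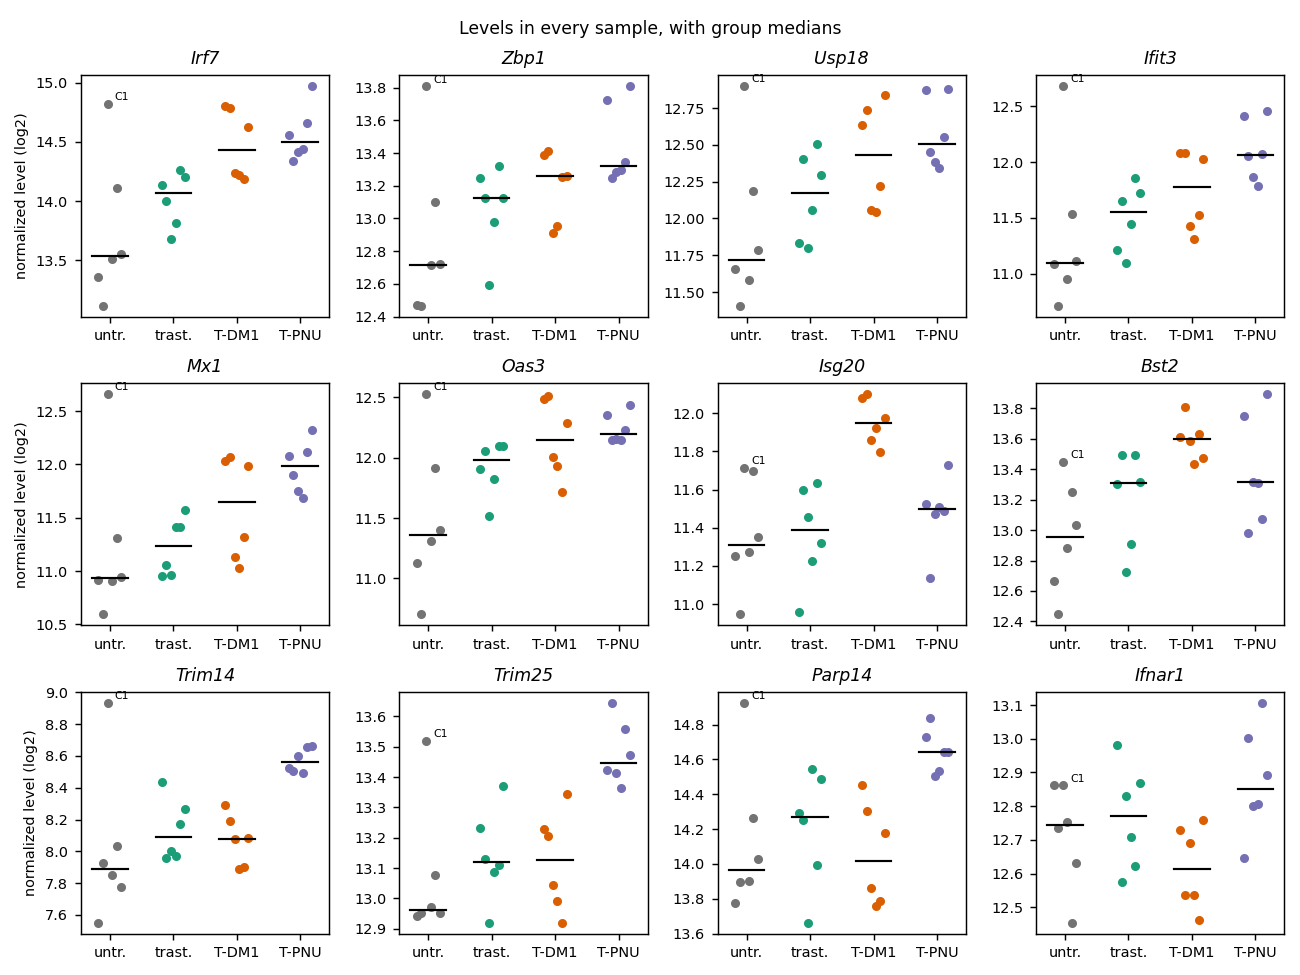
Normalized log2 level of 12 of the genes in every sample (points, 1 mouse each) by group, with group medians as bars and untreated C1 marked; each panel has its own scale, which does not start at 0. Isg20 is the gene whose 6 T-DM1 points (11.80 to 12.10) lie above all others, and Trim14, Trim25 and Parp14 show the T-PNU points above the T-DM1 points.

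Of the 4 TRIM genes, 2 were called higher under T-PNU than under T-DM1. Trim14 (chr4:46493781-46536141), an adaptor of mitochondrial antiviral signaling, ran from 7.55 to 8.94 in untreated mice (median 7.89), from 7.96 to 8.44 under trastuzumab (8.09), from 7.89 to 8.29 under T-DM1 (8.08) and from 8.49 to 8.66 under T-PNU (8.56). All T-PNU values lay above all trastuzumab and T-DM1 values and above all untreated values but C1. Trim14 was higher under T-PNU than under T-DM1 by 0.50 (95% CI 0.18 to 0.82, limma adjusted p = 0.019), with an adjusted p under 0.05 in 18 of 18 alternatives (0.000359 to 0.047). Against untreated, T-PNU stood higher by 0.56 ± 0.15 (SE, limma adjusted p = 0.0677), and by 0.75 without C1 (adjusted p = 0.000567, from 0.000144 to 0.201 over 20 alternatives).

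Trim25 (chr11:88999376-89020293), a ubiquitin ligase that activates RIG-I, ran from 12.94 to 13.52 in untreated mice (median 12.96), from 12.92 to 13.37 under trastuzumab (13.12), from 12.92 to 13.34 under T-DM1 (13.13) and from 13.37 to 13.65 under T-PNU (13.45). The T-PNU samples lay above all T-DM1 samples. Trim25 was higher under T-PNU than under T-DM1 by 0.36 (95% CI 0.16 to 0.56, limma adjusted p = 0.00966), with an adjusted p under 0.05 in 19 of 19 alternatives (0.000933 to 0.0307). It stood 0.41 ± 0.10 above untreated under T-PNU (SE, limma adjusted p = 0.0543), 0.50 without C1 (adjusted p = 0.00162, from 0.000757 to 0.193 over 21 alternatives), and 0.05 above it under T-DM1. All 4 TRIM genes stood between 0.34 and 0.56 above untreated under T-PNU, and between 0.01 and 0.06 under T-DM1.

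PARP9 and its partner ubiquitin ligase DTX3L form a complex known to act in the interferon response, and PARP14 is a large ADP-ribosyltransferase. The 3 genes lie together on chromosome 16, where Parp9 and Dtx3l overlap by 682 bases on opposite strands, and the counting was strand-specific. Parp14 (chr16:35832874-35871544) ran from 13.78 to 14.93 in untreated mice (median 13.96), from 13.66 to 14.55 under trastuzumab (14.27), from 13.76 to 14.45 under T-DM1 (14.02) and from 14.50 to 14.84 under T-PNU (14.64). Its T-PNU values lay above all T-DM1 values. The difference of 0.59 (95% CI 0.24 to 0.95, limma adjusted p = 0.0145) was the largest of the 41 between T-PNU and T-DM1, and its adjusted p stayed under 0.05 in 19 of 19 alternatives (0.00318 to 0.041). Parp14 stood 0.52 ± 0.17 above untreated under T-PNU (SE, limma adjusted p = 0.0915), 0.67 without C1 (adjusted p = 0.00703, from 0.00533 to 0.227 over 21 alternatives), and at -0.08 under T-DM1, which became 0.08 without C1 and 0.06 in the 20 samples.

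Dtx3l (chr16:35926511-35939151) ran from 11.70 to 12.84 in untreated mice (median 11.94), from 11.65 to 12.34 under trastuzumab (12.19), from 11.80 to 12.29 under T-DM1 (12.12) and from 12.32 to 12.65 under T-PNU (12.61). It was higher under T-PNU than under T-DM1 by 0.44 (95% CI 0.12 to 0.76, limma adjusted p = 0.0341, from 0.00433 to 0.0872 over 19 alternatives). Parp9 (chr16:35938470-35972605) ran from 12.11 to 12.95 in untreated mice (median 12.21), from 12.02 to 12.52 under trastuzumab (12.39), from 12.06 to 12.39 under T-DM1 (12.32) and from 12.42 to 12.83 under T-PNU (12.58). In both genes every T-PNU value was above every T-DM1 value, if only just. Parp9 was higher under T-PNU than under T-DM1 by 0.34 (95% CI 0.09 to 0.58, limma adjusted p = 0.0367, from 0.00617 to 0.0878 over 19 alternatives).

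Of the other induced genes, Sp100 (chr1:85649988-85709998), a component of nuclear bodies, ran from 12.56 to 13.61 in untreated mice (median 12.73), from 12.55 to 13.25 under trastuzumab (12.94), from 12.60 to 13.09 under T-DM1 (12.89) and from 13.10 to 13.65 under T-PNU (13.35). The T-PNU and T-DM1 ranges met without overlapping. Sp100 was higher under T-PNU than under T-DM1 by 0.51 (95% CI 0.19 to 0.83, limma adjusted p = 0.0187, from 0.000971 to 0.0505 over 19 alternatives). Rtp4, Xaf1 and Ifi35, which complete the 4, stood between 0.36 and 0.51 above untreated under T-PNU and between 0.24 and 0.30 under T-DM1, without a call.

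Irf7 was then compared with the other 40 genes over the 24 samples, to ask which varied with it from mouse to mouse. All 40 Pearson correlations were positive, from 0.125 to 0.965 with a median of 0.823, and the median Spearman rho was 0.828. By a two-sided permutation test with 100000 resamples and Benjamini-Hochberg adjustment over the 40, 38 Pearson and 39 Spearman correlations had an adjusted p under 0.05, and 23 reached 1e-05, the smallest p the resamples can give. Isg15 (r = 0.965), Oas3 (0.961), Usp18 (0.925) and Ifi35 (0.924) were most like Irf7. At the other end stood Ifnar1 (r = 0.125, permutation adjusted p = 0.559), Ifnar2 (0.398, permutation adjusted p = 0.055) and Irf9 (0.491), while r was 0.641 for Parp14 and 0.646 for Isg20. Without A1 and B1, which lay farthest from the Irf7 median, the median r was 0.780 in 22 samples. On deviations from the group means it was 0.849, and 37 of the 40 had an adjusted p under 0.05. The low r of Irf9 depended on the samples used. It was 0.738 without A1 and B1, 0.787 in the 20 samples and 0.391 on deviations from group means. The points share sample composition and normalization. Correlations of Irf7 with genes outside the set are not given here. The counts with an adjusted p under 0.05 therefore cannot be read as particular to the 40.

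**Figure D4:**
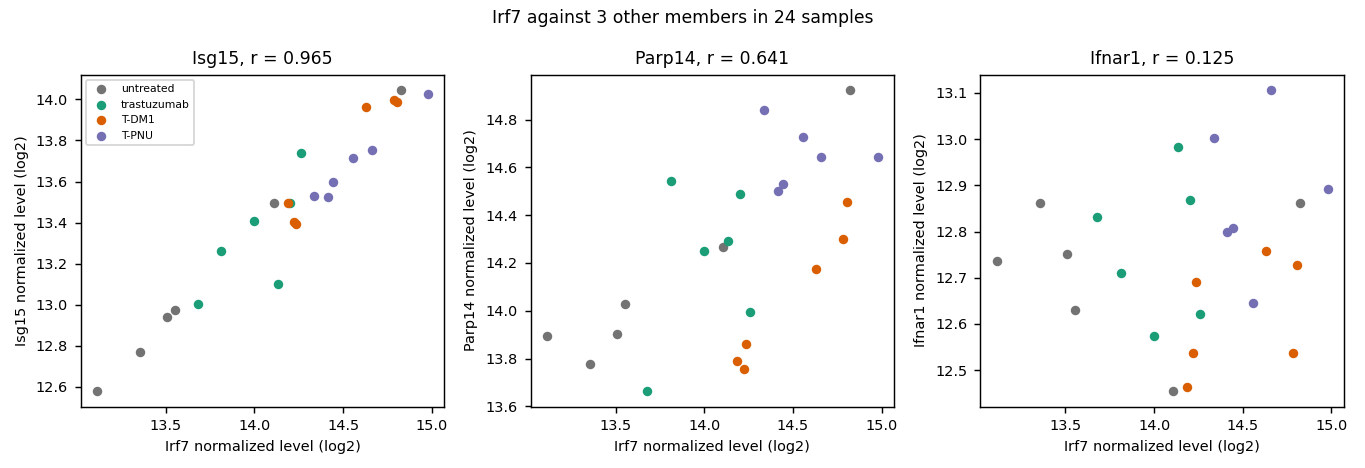
Irf7 against Isg15, Parp14 and Ifnar1 in 24 samples (both axes normalized log2 levels, points colored by group). Over the 24 samples Isg15 follows Irf7 closely (r = 0.965), Parp14 less so with T-DM1 samples low for their Irf7 level (r = 0.641), and Ifnar1 hardly (r = 0.125).

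Elsewhere in the pathway, 1 of 18 type I interferon genes was measured. Ifnb1, which encodes interferon beta, ran from 5.90 to 7.65 in untreated mice, from 6.31 to 7.72 under trastuzumab, from 6.48 to 7.67 under T-DM1 and from 6.70 to 7.09 under T-PNU. The ranges lay on each other, and the T-PNU difference from untreated was 0.01 ± 0.24 (SE, limma adjusted p = 0.976), or -0.05 in the 20 samples.

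Of 17 genes of upstream nucleic acid sensing 14 were measured. Tlr9, the endosomal receptor for unmethylated DNA, was called higher than untreated under T-PNU (0.72, limma adjusted p = 0.0497), where 0.135% of all genes were. It was also called under T-DM1 (0.53, limma adjusted p = 0.0411), where 4.11% were, and stood 0.65 higher under trastuzumab (limma adjusted p = 0.062). Both calls lay close to the threshold, and whether they held in the alternatives is not given here. Between T-PNU and T-DM1, 5 of the 14 were called higher, where 12.4% of all genes were, and none lower, where 17.4% were, namely the kinases Ikbke (0.58) and Tbk1 (0.28), the RNA receptor Tlr7 (0.66), the adaptor Myd88 (0.22) and the nucleotide hydrolase Samhd1 (0.48). Of 4 negative regulators none was called against untreated, and Pias1 was higher under T-PNU than under T-DM1 by 0.43 (limma adjusted p = 0.0049).

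A further 28 interferon-stimulated genes outside the 41 gave a median of 0.45 under T-PNU against untreated, with 28 of 28 positive, none called by limma and 24 with an unadjusted p under 0.05 (9.74% of all genes). In the 20 samples 25 were called, where 15.3% of all genes were. Under T-DM1 the median was 0.24 and 2 of the 28 rose, where 4.11% of all genes did, Ifit1bl1 by 1.10 (limma adjusted p = 0.0308) and Ly6e by 0.46 (limma adjusted p = 0.0459). Sp110 and Gm4951 were higher under T-PNU than under T-DM1, by 0.42 and 0.80, which is 2 of 28 where 12.4% of all genes were called.

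Markers of cell types moved with some of these differences, and their part in the results was not tested. Averaged as deviations like the 41 genes, 9 monocyte and macrophage markers ran from -0.98 to 0.81 in untreated mice (median -0.03), from -0.04 to 0.20 under trastuzumab (-0.01), from -0.65 to 0.02 under T-DM1 (-0.19) and from -0.02 to 0.47 under T-PNU (0.27). Untreated C1 was the highest of these at 0.81 and B1 the lowest at -0.98, the same 2 samples that stood at the ends for the 41 genes. C1 also held 0.73 for 4 NK cell markers and 0.74 for 6 neutrophil markers, and -0.96 for 8 B cell markers.

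For T-PNU against untreated, 9 T cell markers were all positive with a median of 0.96, none called by limma and 2 with an unadjusted p under 0.05. At that threshold 9.74% of all genes were higher. All 9 T cell markers were called in the 20 samples, with a median of 1.60, where 15.3% of all genes were. Their level in all 24 samples ran from -1.47 to 1.40 in untreated mice (median -0.43) and from -0.42 to 1.80 under T-PNU (0.84), and the ranges overlapped. The 20 samples leave out the untreated mice with the highest T cell markers. B1 held the highest untreated values of Cd3d (11.48) and Cd4 (12.22), and C1 that of Cd8a (10.79). Of 4 leukocyte markers 1 was called for T-PNU against untreated, Laptm5 at 0.57, where 0.135% of all genes were called higher. In the 20 samples 2 of the 4 were called, where 15.3% of all genes were. All 4 NK cell markers were positive in this comparison with a median of 0.63.

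Between T-PNU and T-DM1, 3 of 4 leukocyte markers, 4 of 4 NK cell markers and 4 of 9 monocyte and macrophage markers were called higher under T-PNU, Ptprc by 0.76 (limma adjusted p = 0.00569), Adgre1 by 0.86 and C1qa by 0.72. Of 8 fibroblast and endothelial markers 5 were called lower, Col1a1 by a log2 fold change of -1.62, and 2 higher. In this comparison 12.4% of all genes were called higher and 17.4% lower. Leukocyte markers ran from -0.39 to -0.01 under T-DM1 and from -0.07 to 0.52 under T-PNU, so the ranges overlapped only at their ends. Plasmacytoid dendritic cells are known as strong producers of type I interferon, and their 6 markers ran from -0.26 to 1.00 under T-PNU, overlapping every other group. The median was highest under T-PNU (0.53), against -0.26 in untreated mice, 0.04 under trastuzumab and -0.23 under T-DM1.

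**Figure D5:**
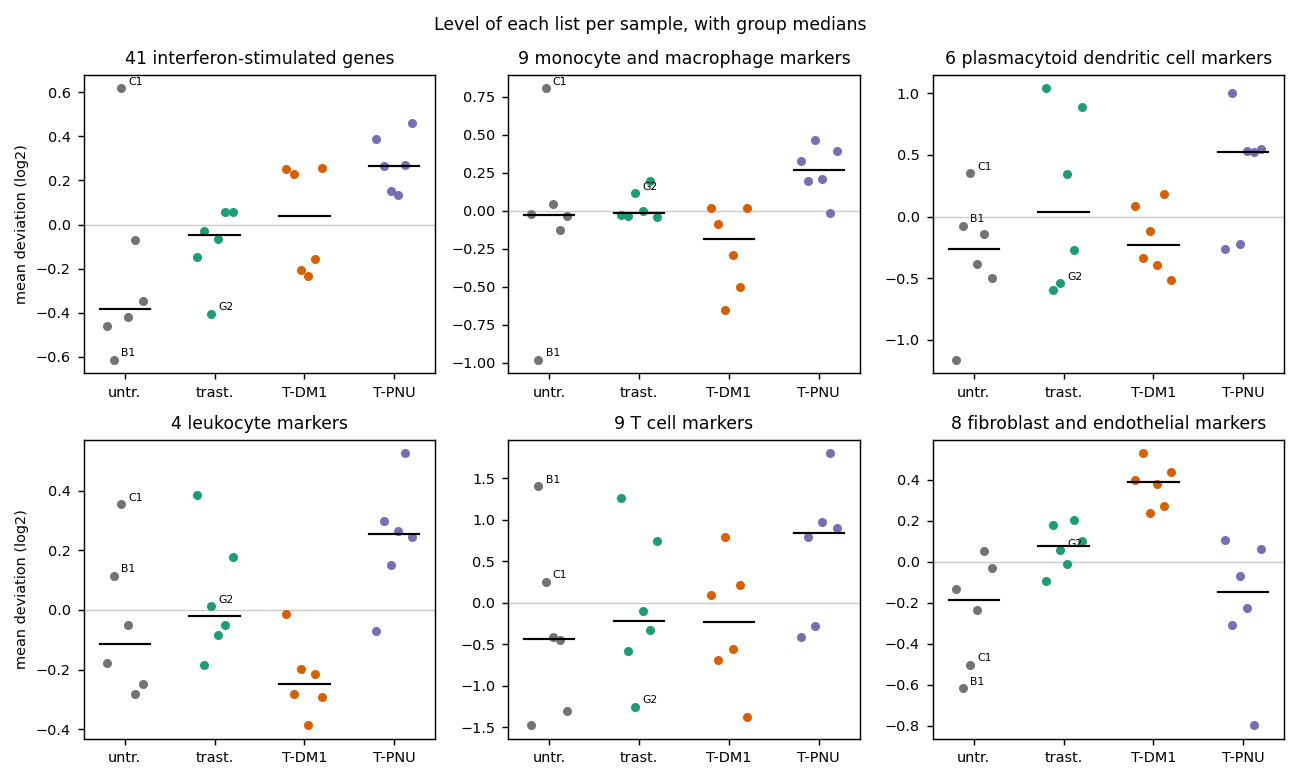
Mean log2 deviation from the 24-sample average for the 41 interferon-stimulated genes and for 5 lists of cell type markers, per sample (points, 1 mouse each) and with group medians as bars; panels have separate scales. C1 is highest for the 41 genes (0.62) and for macrophage markers (0.81), and the T-DM1 points are highest for fibroblast and endothelial markers (0.24 to 0.53).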

How the data were processed

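Libraries from 24 mice were made with a stranded mRNA kit. According to the labels and methods, the authors aligned reads to mm10 with STAR 2.4.2a, checked them with Picard, counted reads per gene strand-specifically with featureCounts (Subread 1.5.0), removed genes averaging under 5 counts and used DESeq2. The deposited values are log2 levels normalized for library size by the authors. The transformation is not named, gene-wise shrinkage may have reduced fold changes, and read depth is unknown, so the precision rests on the spread between the 6 mice of a group. The symbol column gave the 41 genes.

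Here all 24 samples entered one limma 3.58.1 fit (R 4.3.3, lmFit and eBayes with a trend) with 4 groups, no covariate and Benjamini-Hochberg adjustment over 16996 genes. Python 3.11.15, numpy 2.4.6, scipy 1.17.1 and matplotlib 3.10.9 were used for levels, correlations and figures. For a list, each gene's deviation from its 24-sample average was averaged per sample. The steps were tested on simulated data. Positions came from GENCODE M21 and promoters from RefSeq.

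The members and lists were chosen with earlier results of these data known. Genes named with values were both receptor chains, every member called between 2 groups, the highest and lowest fold change of each comparison and, per role, the member with the widest range of group means. Of the other lists, members called were named, and some are not reported here. Isg15 was added after its values were seen. Alternatives were the 20 samples of the study's heatmaps, the same with B1 or C1 added (chosen after seeing the data), quantile normalization and subtraction of sample medians. Others were genes above the median, fits of 2 groups only, sample weights and a fit without the trend. The last were the study's thresholds (counts of calls only) and each sample left out in turn. For groups outside a comparison, whose samples set only the shared spread, leaving samples out was added after seeing the data and for counts only.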

Additional observations from a re-analysis of the deposited data

Results flagged for a closer look

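Within groups of 6 mice, 11 of 164 combinations of gene and group held 1 sample that lay far from the other 5 by Dixon's criterion at the 95% level, which chance meets in about 1 of 20. The 11 came from 2 samples. Untreated C1 was far above the other untreated mice for 7 genes, with log2 levels of 12.64 for Ddx58, 12.66 for Mx1, 13.47 for Samd9l, 8.94 for Trim14, 13.52 for Trim25, 13.75 for Trim30a and 12.95 for Parp9. Trastuzumab G2 was far below the other trastuzumab mice for 4 genes, with levels of 12.42 for Stat2, 12.35 for Samd9l, 9.46 for Trim21 and 12.02 for Parp9.

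C1 also held the highest level of the interferon gamma axis list among untreated mice (0.56), and Ifng was at 8.40 there. G2 held the lowest T cell marker level among trastuzumab mice (-1.25) and the lowest interferon gamma axis level (-0.60). The part of these markers in the levels of the 41 genes was not tested.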

How the results depend on the processing

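Values past the threshold kept their direction in the alternatives run, while some near 0 did not. In the 20 samples Irf9 under trastuzumab went from -0.08 to 0.01 and Parp14 under T-DM1 from -0.08 to 0.06. The number of the 41 genes called between T-PNU and untreated was 0 with all 24 samples, 35 in the 20 samples of the heatmaps, 6 in those 20 plus C1, 37 in those plus B1, 37 with sample weights (0.215 for B1 and 0.289 for C1) and 1 among genes above the median, and ran from 0 to 36 when 1 sample was left out (36 without C1, 3 without G1, 2 without trastuzumab E2, 1 without A2). Between T-DM1 and untreated the 3 calls became 5 after quantile normalization, 16 with sample weights and 0 at the study's thresholds (false discovery rate 0.01, fold change 2), and ran from 1 to 8 with 1 sample left out. The 9 calls between T-PNU and T-DM1 became 14 in the 20 samples, 15 in a fit of the 2 groups, 15 with sample weights and 0 at the study's thresholds, and ran from 4 to 11. Between T-PNU and trastuzumab the 0 calls became 22 in the 20 samples and 9 with sample weights, and ran from 0 to 2 (2 without C1). The 1 call between T-DM1 and trastuzumab became 0 among genes above the median and at the study's thresholds, and ran from 0 to 1. The 6 calls of the F test became 35 in the 20 samples and 38 with sample weights, and ran from 2 to 35. Trastuzumab and untreated gave 0 calls in every alternative run. Medians of the 41 fold changes moved less, from 0.42 to 0.67 for T-PNU against untreated, 0.14 to 0.45 for T-DM1 against untreated, 0.05 to 0.29 for trastuzumab against untreated and 0.23 to 0.33 for T-PNU against T-DM1. The causes of these changes were not tested. Calls over all genes moved too, from 0.135% higher between T-PNU and untreated with all 24 samples to 15.3% in the 20 samples. Where no share of all genes is printed for an alternative, its count cannot be read as particular to the 41. Nothing in the labels says that the 6 mice of a group shared a cage or a day, doses differed, and depth is unknown, so no limit of detection can be given. No paired analysis was possible because the labels give no shared replicate numbers.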

Other observations

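Interferon gamma signals through a receptor of its own. Of 16 genes of its axis, 15 had a positive fold change under T-PNU against untreated, with a median log2 fold change of 0.37, none called by limma and 4 with an unadjusted p under 0.05. At that threshold 9.74% of all genes were higher. Of the 16, 8 were called in the 20 samples, where 15.3% of all genes were. Under T-DM1 4 of the 16 were positive and the median was -0.12, with none called by limma and an unadjusted p under 0.05 for 2. This turned in the 20 samples, where 11 of the 16 were positive and the median was 0.12. Between T-PNU and T-DM1 the median was 0.39 and 3 of the 16 were called higher, where 12.4% of all genes were (10 in the 20 samples, against 19.8%), namely the transcription factor gene Irf1 (0.63, 95% CI 0.29 to 0.97, limma adjusted p = 0.0081), the GTPase gene Irgm1 (0.58, limma adjusted p = 0.0326) and the kinase gene Jak2 (0.26, limma adjusted p = 0.0377). Ifng itself stood 0.86 ± 0.37 higher under T-PNU than under T-DM1 (SE, limma adjusted p = 0.0796).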
